A study of Mus musculus with 4 samples.

Results

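A set of 9 genes of dopamine and serotonin signaling was followed in prefrontal cortex (PFC), of which *Drd2*, *Ppp1r1b*, *Adora2a*, *Rgs9* and *Tac1* are known as markers of striatal neurons and *Htr1a*, *Htr1b*, *Htr2a* and *Htr2c* encode serotonin receptors. The genes were taken by symbol, as 9 of the 23420 gene symbols counted, and all 9 were among the 16232 genes that had enough reads to be tested. RNA-seq was performed on PFC punches showing GFP fluorescence, from wild-type C57BL6/J mice injected at 5 weeks of age with a GFP-tagged adeno-associated virus (AAV). The virus of 2 samples carried a short hairpin RNA (shRNA) against *Ash1L*, a histone methyltransferase gene, under the U6 promoter, which is active in any infected cell type. The other 2 samples were controls, labelled as injected with GFP AAV9, whereas the methods name a scrambled shRNA in the same AAV. Each sample was made from a pool of tissue of 3 mice in the methods, while the series text lists 3 shRNA mice and 2 control mice, aged 6 to 8 weeks.

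Dopamine acts in the forebrain through D1-type receptors, which raise cyclic AMP, and D2-type receptors, which lower it. In the striatum these receptors divide the projection neurons into those with *Drd1*, *Tac1* and *Pdyn* (the direct pathway) and those with *Drd2*, *Adora2a*, *Penk* and *Gpr6* (the indirect pathway), and both kinds use DARPP-32, the product of *Ppp1r1b*. The PFC holds far fewer such transcripts, but its deep-layer neurons also use *Drd1*, *Drd2* and *Ppp1r1b*, and its pyramidal cells carry the serotonin receptors encoded by *Htr1a* and *Htr2a*. The striatum lies close behind the medial PFC, so the comparison also asks whether striatal-type genes moved together across samples.

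The 5 striatal-type members did not all lie on one side of the controls. *Drd2* and *Rgs9* were called UP in *Ash1L* shRNA samples, *Ppp1r1b* and *Adora2a* were higher in both shRNA samples without being called, and *Tac1* had one shRNA sample above and one below the controls. Of the 4 serotonin receptor genes, *Htr1a* was called DOWN, *Htr1b* was lower in both shRNA samples without being called, and *Htr2a* and *Htr2c* overlapped between the groups. A gene was called UP or DOWN at an unadjusted P under 0.05 together with a change of 1.2-fold or more, the study's thresholds, here applied to edgeR's quasi-likelihood test in place of the DESeq2 analysis of the study. With DESeq2, *Rgs9* and *Ppp1r1b* were called UP and *Drd2* was not. UP calls made up 8.61% and DOWN calls 8.28% of all genes tested, against 2 and 1 of these 9 genes (22.2% and 11.1%), and shares over 9 genes are too coarse to stand apart from those figures. Both shRNA samples lay above both controls for 4 of the 9 genes and below them for 2, while over all genes tested these shares were 26.5% and 26.8%. With Benjamini-Hochberg adjustment over the 16232 genes in edgeR, 0 members passed 0.05, against 3 before adjustment, and the adjusted p-values of the 9 genes ran from 0.260 to 0.888. DESeq2 also gave 0. Without *Ash1L* shRNA sample 1, a fit in which the lone shRNA sample is assumed to vary like the controls, *Drd2*, *Rgs9*, *Ppp1r1b* and *Htr1a* passed after adjustment.

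**Figure D1:**
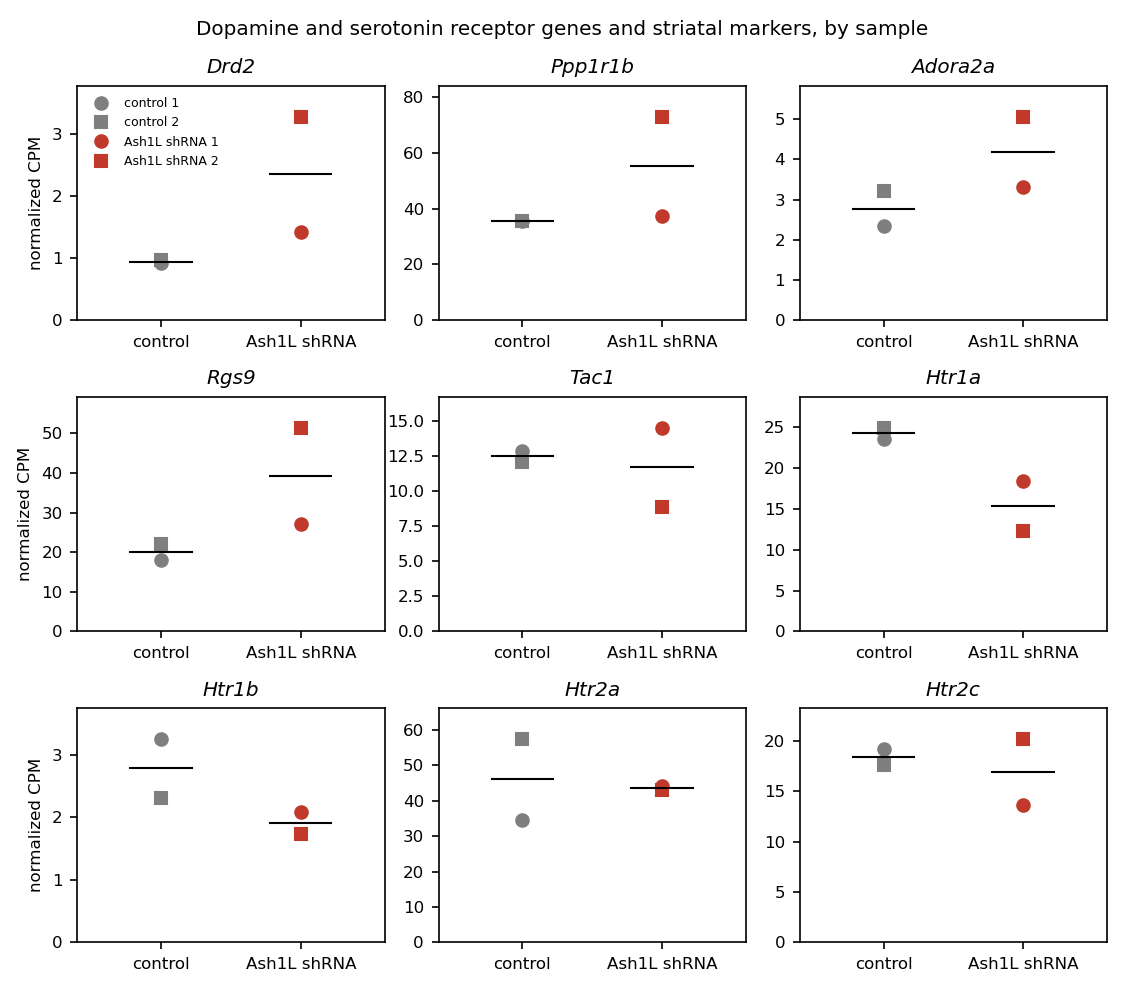
Normalized CPM (counts scaled to a common library total, linear axis from 0) of the 9 genes in the 2 control samples (grey) and the 2 *Ash1L* shRNA samples (red), where circles are replicate 1, squares replicate 2 and black lines group means. For *Drd2*, *Ppp1r1b*, *Adora2a* and *Rgs9* the square of *Ash1L* shRNA sample 2 stands above the other 3 points, and for *Htr1a* both red points lie below both grey ones.

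Counts summed to between 14251190 and 35764874 per sample, lowest in control sample 1, and levels are given as CPM, counts scaled to library size after TMM normalization, which compare 1 gene between samples. *Ash1l* itself had 245 and 290.1 CPM in control samples 1 and 2 and 216 and 138 CPM in *Ash1L* shRNA samples 1 and 2. The targeted gene was thus lower in both shRNA samples and lowest in sample 2, with a log2 fold change of -0.60 ± 0.22 (SE, n = 2 per group) and edgeR adjusted p = 0.275. It was called DOWN, but not without *Ash1L* shRNA sample 2, at -0.31, nor without control sample 1 or 2, at -0.71 and -0.48. *Ash1l* shares exonic sequence with *Dap3* on the opposite strand, whose counts were not compared. The level of *Ash1l* is therefore uncertain if reads were counted without strand. Permuting 2 samples against 2 (two-sided, exact) can give no p under 0.333. No source says that samples came from separate injections beyond the pools of mice, so p-values measure the spread between these 4 samples. In bulk tissue, fewer cells of a type and less RNA per cell cannot be told apart.

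Per kilobase of exon, the scale on which levels of different genes can be compared, *Ppp1r1b* had the highest level of the 9 genes in control samples, at 12.2 ± 0.038 CPM per kb (SD, n = 2). *Htr2a* followed at 8.22 ± 2.89 and *Htr1a* at 5.41 ± 0.213 CPM per kb. *Tac1*, at 3.67 ± 0.174, and *Rgs9*, at 3.14 ± 0.463 CPM per kb, were next and did not overlap between the controls, by a narrow margin of 3.55 against 3.47 in control sample 2. *Htr2c* had 1.97 ± 0.122, *Adora2a* 0.908 ± 0.204, *Htr1b* 0.589 ± 0.142 and *Drd2* 0.371 ± 0.013 CPM per kb. Every other pair of neighbours in this order was also separated in the 2 control samples. In *Ash1L* shRNA samples the order changed for *Rgs9*, whose mean of 6.15 CPM per kb lay above those of *Tac1* (3.44) and *Htr1a* (3.42) although *Rgs9* and *Tac1* were level in sample 1 (4.25 and 4.28 CPM per kb), for *Tac1* and *Htr1a*, whose order turned with ranges that overlapped, and for *Drd2*, whose mean of 0.924 CPM per kb lay above that of *Htr1b* (0.404).

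The promoters of the 3 called members and of *Tac1*, which was lowest in *Ash1L* shRNA sample 2, are shown for comparison. They are the 250 bases before the RefSeq start on GRCm38.p6, 5′ to 3′ on the strand of the gene, with capitals on each GC box (GGGCGG or CCGCCC), each half-site of the cyclic AMP response element (TGACG or CGTCA) and each TATAAA or TTTATA, in either orientation. RefSeq promoters were matched for 7 of the 9 genes, and *Ppp1r1b* and *Adora2a* are not shown.
Drd2 (chr9:49340153-49340402, plus strand): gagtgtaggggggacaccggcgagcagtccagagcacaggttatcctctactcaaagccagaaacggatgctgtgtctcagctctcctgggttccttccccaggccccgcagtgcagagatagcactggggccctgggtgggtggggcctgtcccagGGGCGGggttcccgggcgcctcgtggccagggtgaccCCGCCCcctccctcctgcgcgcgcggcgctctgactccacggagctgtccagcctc
Rgs9 (chr11:109298182-109298431, minus strand): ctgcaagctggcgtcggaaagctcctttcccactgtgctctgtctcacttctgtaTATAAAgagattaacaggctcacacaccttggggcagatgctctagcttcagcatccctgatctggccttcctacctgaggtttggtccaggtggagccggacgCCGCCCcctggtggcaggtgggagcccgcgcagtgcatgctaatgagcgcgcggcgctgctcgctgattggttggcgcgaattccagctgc
Tac1 (chr6:7554811-7555060, plus strand): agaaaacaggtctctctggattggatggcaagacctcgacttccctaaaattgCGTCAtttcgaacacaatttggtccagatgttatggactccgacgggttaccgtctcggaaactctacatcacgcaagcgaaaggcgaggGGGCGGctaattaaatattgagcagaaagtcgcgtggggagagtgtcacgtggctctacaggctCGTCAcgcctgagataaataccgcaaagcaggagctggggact
Htr1a (chr13:105443443-105443692, plus strand): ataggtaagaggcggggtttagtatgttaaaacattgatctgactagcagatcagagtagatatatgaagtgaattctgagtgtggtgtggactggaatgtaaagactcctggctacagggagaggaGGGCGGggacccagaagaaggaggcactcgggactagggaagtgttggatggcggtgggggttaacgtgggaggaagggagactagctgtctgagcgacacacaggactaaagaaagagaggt
*Drd2* held 2 GC boxes in this window and *Rgs9*, *Htr1a* and *Tac1* 1 each, while 32.7% of 32851 promoters held at least 1. *Tac1* alone of the 7 matched genes held half-sites of the cyclic AMP response element, 2 of them, against 17.8% of all promoters with at least 1, and *Rgs9* alone held a TATAAA, against 12.4%. CpG dinucleotides numbered 15 in *Drd2*, 14 in *Rgs9* and 17 in *Tac1*, and 6 in *Htr1a*, 6 in *Htr1b*, 4 in *Htr2a* and 5 in *Htr2c*, beside a median of 6 over all promoters. The 3 striatal-type genes with a promoter sequence therefore had more CpG dinucleotides than the 4 serotonin receptor genes, whether they were called UP, as *Drd2* and *Rgs9*, or not, as *Tac1*. These matches describe the letters only.

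The receptor genes were taken first. *Drd2* (ENSMUSG00000032259, chromosome 9 of mm10 from 49340627 to 49408177) encodes the D2 dopamine receptor, which couples to inhibitory G proteins. The reads of *Drd2* numbered 13 and 34 in the control samples and 39 and 68 in *Ash1L* shRNA samples 1 and 2, or 0.921, 0.969, 1.42 and 3.28 CPM. Both controls lay close to 1 CPM, *Ash1L* shRNA sample 1 lay slightly above them, and sample 2 stood apart from all others. By counting error alone, the exact Poisson 95% interval of *Drd2* was 0.490 to 1.57 CPM in control sample 1, 0.671 to 1.35 in control sample 2, 1.01 to 1.95 in *Ash1L* shRNA sample 1 and 2.55 to 4.16 in sample 2. The interval of shRNA sample 1 therefore overlapped those of the controls and that of sample 2 did not. The log2 fold change was 1.29 ± 0.52 (SE, n = 2 per group), with a 95% interval of 0.046 to 2.54 and edgeR adjusted p = 0.287. *Drd2* was not called with DESeq2, where its unadjusted p was 0.052, nor without either control. Without *Ash1L* shRNA sample 2 it was not called either, at a log2 fold change of 0.59.

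*Adora2a* (ENSMUSG00000020178, chromosome 10 from 75316877 to 75334784) encodes the A2a adenosine receptor, which raises cyclic AMP and opposes the D2 receptor in the same striatal neurons. Its level was 2.34 and 3.22 CPM in control samples 1 and 2 and 3.32 and 5.07 CPM in *Ash1L* shRNA samples 1 and 2. *Ash1L* shRNA sample 1 exceeded control sample 2 by a margin well inside counting error (95% intervals of 2.68 to 4.08 and 2.65 to 3.87 CPM), and only sample 2 was clearly higher. *Adora2a* had a log2 fold change of 0.57 ± 0.35 (SE, n = 2 per group), with a 95% interval of -0.28 to 1.41, and *Adora2a* was not called. Without *Ash1L* shRNA sample 2 its log2 fold change was 0.23, and without *Ash1L* shRNA sample 1 it was 0.83 and called UP.

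*Ppp1r1b* (ENSMUSG00000061718, chromosome 11 from 98348404 to 98357796) encodes DARPP-32, which inhibits protein phosphatase 1 once it has been phosphorylated by protein kinase A. Its level was 35.7 and 35.5 CPM in control samples 1 and 2 and 37.2 and 72.9 CPM in *Ash1L* shRNA samples 1 and 2. The controls and *Ash1L* shRNA sample 1 were thus nearly equal, and *Ash1L* shRNA sample 2 held 2.05 times the control mean. The log2 fold change was 0.63 ± 0.30 (SE, n = 2 per group), with a 95% interval of -0.12 to 1.37, which includes no change. With DESeq2 *Ppp1r1b* was called UP, at an unadjusted p of 0.0351. Without *Ash1L* shRNA sample 2 the log2 fold change was 0.07, and without *Ash1L* shRNA sample 1 it was 1.03 and called UP. The gene shares exonic sequence with *1700003D09Rik* on the opposite strand, whose counts came to between 0.728% and 2.65% of those of *Ppp1r1b*, and the setting for strand in the counting is not given in the sources used here.

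*Rgs9* (ENSMUSG00000020599, chromosome 11 from 109225355 to 109298129) encodes a regulator that speeds the shutoff of inhibitory G proteins after receptor activation, with a splice form known for the striatum and another for photoreceptors. Its level was 18.0 and 22.2 CPM in control samples 1 and 2 and 27.2 and 51.5 CPM in *Ash1L* shRNA samples 1 and 2. Both shRNA samples lay above both controls, and sample 2 again held the highest level, at 2.56 times the control mean against 1.35 times in sample 1. *Rgs9* had a log2 fold change of 0.96 ± 0.31 (SE, n = 2 per group), with a 95% interval of 0.20 to 1.72 and edgeR adjusted p = 0.261. *Rgs9* was the member called UP in all 7 listed alternatives that kept all samples. It was also called without either *Ash1L* shRNA sample, at 1.34 without sample 1 and 0.43 without sample 2, and was not called without either control.

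*Tac1* (ENSMUSG00000061762, chromosome 6 from 7554879 to 7565834) encodes the precursor of substance P and neurokinin A, peptides of direct-pathway striatal neurons and of some cortical interneurons. Its level was 12.9 and 12.1 CPM in control samples 1 and 2 and 14.5 and 8.88 CPM in *Ash1L* shRNA samples 1 and 2. *Ash1L* shRNA sample 1 lay above both controls and sample 2 below both, so that *Tac1* was lowest in the very sample in which *Drd2*, *Ppp1r1b*, *Adora2a* and *Rgs9* were highest. The log2 fold change was -0.09 ± 0.26 (SE, n = 2 per group), with a 95% interval of -0.71 to 0.54. It was 0.23 without *Ash1L* shRNA sample 2, and -0.49 and called DOWN without *Ash1L* shRNA sample 1.

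**Figure D2:**
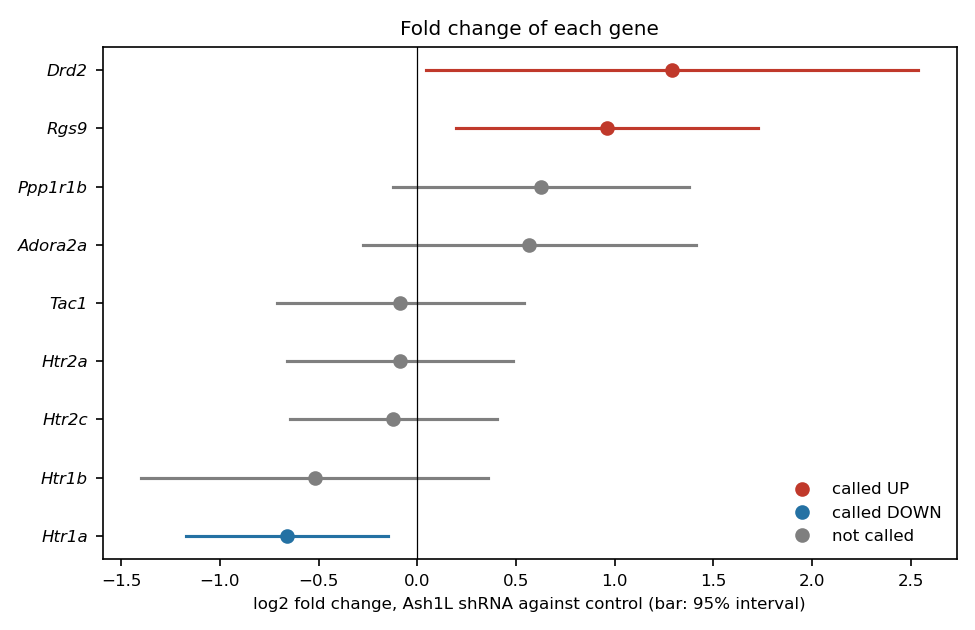
Log2 fold change of *Ash1L* shRNA against control samples for each of the 9 genes, with bars for the 95% interval of edgeR's quasi-likelihood fit and color for the call at an unadjusted P under 0.05 and at least a 1.2-fold change. The bars of *Drd2*, *Rgs9* and *Htr1a* leave out 0 and the other 6 include it.

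Among the serotonin receptors, *Htr1a* (ENSMUSG00000021721, chromosome 13 from 105443639 to 105448122) encodes the 5-HT1A receptor, which couples to inhibitory G proteins and dampens the firing of pyramidal cells. Its level was 23.6 and 24.9 CPM in control samples 1 and 2 and 18.4 and 12.3 CPM in *Ash1L* shRNA samples 1 and 2. Both shRNA samples lay below both controls, at 0.757 and 0.507 times the control mean. *Htr1a* had a log2 fold change of -0.66 ± 0.21 (SE, n = 2 per group), with a 95% interval of -1.17 to -0.15 and edgeR adjusted p = 0.260. *Htr1a* was called DOWN in all 7 listed alternatives that kept all samples and without either *Ash1L* shRNA sample, and was not called without either control.

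*Htr1b* (ENSMUSG00000049511, chromosome 9 from 81628291 to 81633828) encodes the 5-HT1B receptor, an inhibitory receptor of axon terminals. Its level was 3.26 and 2.31 CPM in control samples 1 and 2 and 2.08 and 1.74 CPM in *Ash1L* shRNA samples 1 and 2. The shRNA samples were lower, but the controls differed from each other by more than control sample 2 differed from either shRNA sample. The log2 fold change was -0.52 ± 0.36 (SE, n = 2 per group), with a 95% interval of -1.40 to 0.36. *D430036J16Rik*, on the opposite strand, shares exonic sequence with *Htr1b* and had from 50.0% to 122% of its counts, so the level of *Htr1b* is uncertain if reads were counted without strand.

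*Htr2a* (ENSMUSG00000034997, chromosome 14 from 74640840 to 74709494) and *Htr2c* (ENSMUSG00000041380, chromosome X from 146962513 to 147197277) encode receptors that excite cells through phospholipase C. *Htr2a* had 34.6 and 57.5 CPM in control samples 1 and 2 and 44.3 and 42.9 CPM in *Ash1L* shRNA samples 1 and 2. Both shRNA samples therefore lay between the controls, and the log2 fold change of -0.09 ± 0.24 (95% interval of -0.66 to 0.49) became 0.33 without control sample 2. *Htr2c* had 19.2 and 17.6 CPM in control samples and 13.6 and 20.2 CPM in *Ash1L* shRNA samples 1 and 2. Its shRNA samples fell on both sides of the controls, with a log2 fold change of -0.12 ± 0.22 (95% interval of -0.65 to 0.40) that became 0.14 without *Ash1L* shRNA sample 1, and -0.43 and called DOWN without *Ash1L* shRNA sample 2.

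To see whether the members followed striatal genes in general, 15 other striatal-type genes were listed, of which 13 were tested and *Six3* and *Isl1* had too few reads. *Adcy5* was called DOWN and *Pde10a* was called UP, 7 genes were higher and 6 lower, and the median log2 fold change was 0.07, beside 0.63 for the 5 members and -0.0027 for all genes tested. Without genes under 10 counts in any sample (*Syndig1l* and *Ido1*), the median of the other striatal genes was -0.21. *Adcy5*, the main adenylyl cyclase of the striatum, had 116 and 130.0 CPM in controls and 95.8 and 91.5 CPM in shRNA samples, a log2 fold change of -0.39 ± 0.12 (SE). *Pde10a*, a phosphodiesterase of striatal neurons, had 84.6 and 73.5 CPM in controls and 102 and 94.6 CPM in shRNA samples, a log2 fold change of 0.31 ± 0.12 (SE), and it lost its call with DESeq2, with edgeR's likelihood ratio test and in the fit blocked by replicate number. In edgeR the adjusted p was 0.260 for *Adcy5* and 0.281 for *Pde10a*.

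*Penk*, the enkephalin precursor of indirect-pathway neurons and of cortical interneurons, had the highest fold change of this list. Its level was 46.0 and 33.8 CPM in control samples 1 and 2 and 47.2 and 81.7 CPM in *Ash1L* shRNA samples 1 and 2. *Ash1L* shRNA sample 1 was close to control sample 1, and sample 2 held 2.05 times the control mean, as for *Ppp1r1b*. *Gpr6*, another gene of the indirect pathway, went the other way, with 1.2 and 0.713 CPM in controls and 0.511 and 0.531 CPM in shRNA samples. *Drd1*, which encodes the D1 receptor and is listed under its older symbol *Drd1a*, had 24.2 and 26.5 CPM in controls and 21.6 and 31.7 CPM in *Ash1L* shRNA samples 1 and 2, or 1.25 times the control mean in sample 2. *Pdyn*, the dynorphin precursor, had 9.28 and 11.9 CPM in controls and 8.00 and 10.4 CPM in shRNA samples, and *Scn4b*, a sodium channel subunit of striatal and other neurons, had 70.1, 73.7, 61.0 and 24.9 CPM in the same order. *Ash1L* shRNA sample 2 was thus the sample with the highest *Penk* and *Drd1* and with the lowest *Scn4b*.

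Taking the 5 members and the 13 others as 18 tested striatal-type genes, *Ash1L* shRNA sample 2 lay above both controls in 11 and below both in 6. Over all genes tested, the corresponding shares were 41.7% above and 41.7% below. *Ash1L* shRNA sample 1 lay above both controls in 8 of the 18 and below both in 8, with shares of 36.6% and 37.5% over all genes tested. Summed over all 20 listed striatal-type genes, the level was 521 and 521 CPM in control samples 1 and 2 and 510.0 and 576 CPM in *Ash1L* shRNA samples 1 and 2. The sum over the 5 members was 69.8, 74.0, 83.7 and 142 CPM in the same order, and that over the 15 other genes was 452, 447, 426 and 435 CPM. These sums follow their most abundant genes. *Ppp1r1b* and *Rgs9* made up most of the member sum in each sample. *Adcy5*, *Pde10a* and *Scn4b* made up most of the sum over the other genes in both controls. In *Ash1L* shRNA sample 2, *Scn4b* and *Adcy5* lay below both controls and *Penk* above both. The difference between these lists was not tested.

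**Figure D3:**
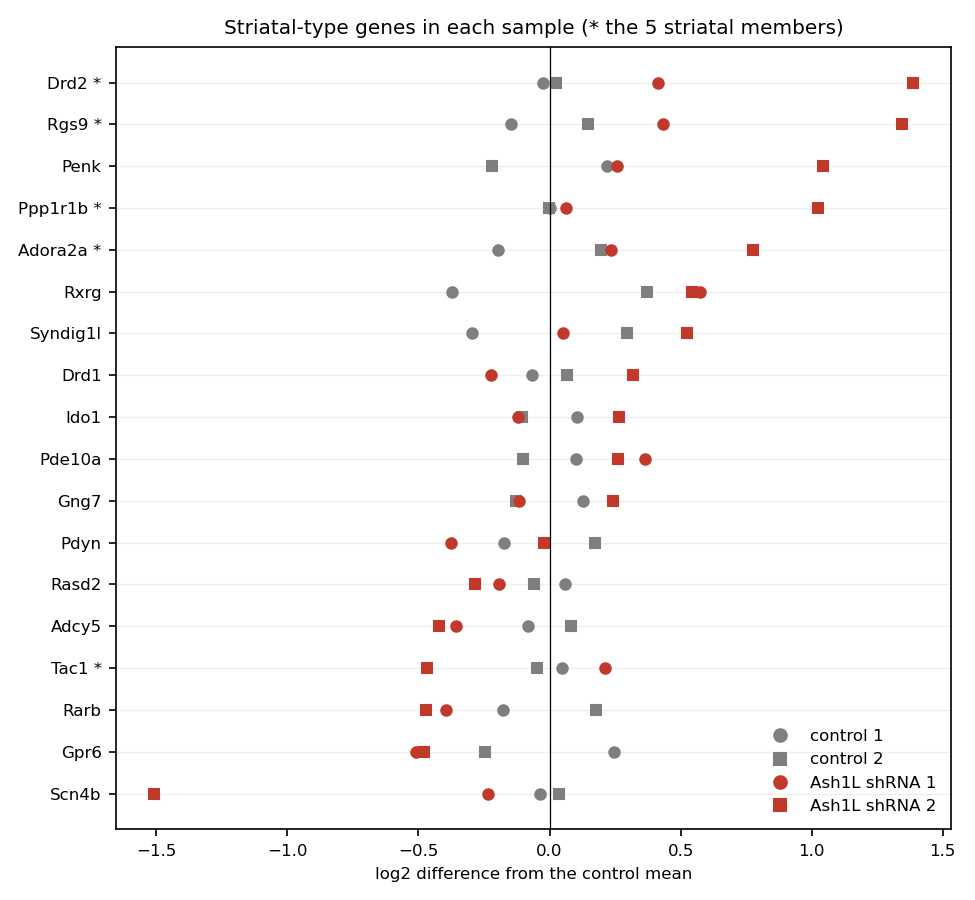
Log2 difference from the control mean, after adding 0.5 to each CPM, for 18 tested striatal-type genes in each of the 4 samples, ordered by *Ash1L* shRNA sample 2 (red squares), with asterisks on the 5 members. *Drd2*, *Rgs9*, *Penk*, *Ppp1r1b* and *Adora2a* lie at the upper end and *Scn4b*, *Gpr6*, *Rarb* and *Tac1* at the lower end, so the listed genes spread to both sides in that sample.

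The other receptors of the same transmitters were set beside the members. Of 4 other dopamine receptor genes, *Drd3* had too few reads and *Drd4* was called UP, on 6 and 11 reads in the controls against 31 and 38 reads in the shRNA samples. *Drd4* encodes a second D2-type receptor, and its level was 0.425 and 0.314 CPM in controls and 1.13 and 1.83 CPM in shRNA samples. The log2 fold change was 2.03 ± 0.53 (SE, n = 2 per group), with edgeR adjusted p = 0.253. *Drd4* passed the filter on low counts through the shRNA samples, so its direction and call are not read as a result. With at least 10 counts required in every sample *Drd4* was not tested. *Drd5*, a D1-type receptor gene, overlapped between the groups with a log2 fold change of -0.32. Of 10 other serotonin receptor genes 9 were tested, *Htr7* was called DOWN, none was called UP, and the median log2 fold change was 0.01 against -0.32 for the 4 members. *Htr7*, which encodes a receptor that raises cyclic AMP, had 9.26 ± 0.974 CPM (SD, n = 2) in control and 6.08 ± 0.278 CPM (SD, n = 2) in shRNA samples, a log2 fold change of -0.61 ± 0.21 (SE), and lost its call in the fit blocked by replicate number. The highest fold change among these serotonin receptors was 0.53 in *Htr1d*, at 20 counts or fewer in every sample. *Adora1*, the more abundant adenosine receptor gene of cortex, was called UP with 182 ± 17.0 CPM (SD, n = 2) in control and 229 ± 15.8 CPM in shRNA samples, a call lost with edgeR's likelihood ratio test and in the blocked fit, and *Adora2b* and *Adora3* were not called.

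Of 14 genes whose products act with DARPP-32, the A2a receptor or RGS9 in cyclic AMP signaling, 6 (42.9%) were called DOWN. Over all genes tested that share was 8.28%. *Pde10a* was called UP, and the median log2 fold change of the 14 was -0.22. *Adcy5*, *Pde10a* and *Gng7* also belong to the other striatal genes, so the calls of *Adcy5* and *Pde10a* enter both lists. *Gnb5*, the obligate partner of RGS9, had 96.4 and 138 CPM in control samples 1 and 2 and 89.7 and 54.4 CPM in *Ash1L* shRNA samples 1 and 2. Its log2 fold change was -0.70 ± 0.28 (SE, n = 2 per group), opposite in sign to that of *Rgs9*. *Gnal*, the G protein that couples D1 and A2a receptors to adenylyl cyclase, had a log2 fold change of -0.39, *Prkaca*, a catalytic subunit of protein kinase A, one of -0.54, and *Ppp1ca*, a form of the phosphatase that DARPP-32 inhibits, one of -0.47. *Cdk5*, a kinase of DARPP-32, and *Adcy5* were the others called DOWN. The count of 6 fell to 3 in the fit blocked by replicate number and ran from 0, without control sample 2, to 7, without *Ash1L* shRNA sample 1. It was 3 without control sample 1 and 2 without *Ash1L* shRNA sample 2. Of 3 tachykinin genes, 0 were called in edgeR's test: *Tacr1*, the substance P receptor gene, had 2.05, 1.23, 1.75 and 5.26 CPM in control samples 1 and 2 and *Ash1L* shRNA samples 1 and 2, again highest in the last, while *Tac2* had the lowest log2 fold change of the 3 at -0.45.

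Of 10 genes for making, moving and clearing monoamines, 7 were tested. *Th*, *Ddc* and *Tph2*, which encode enzymes that make monoamines, were tested and not called. *Th* had 2.27 and 2.14 CPM in controls and 2.48 and 3.81 CPM in *Ash1L* shRNA samples 1 and 2. *Ddc* had 5.38, 5.19, 4.56 and 3.76 CPM in the same order, and *Tph2* 1.70, 0.798, 1.35 and 1.74 CPM. Their log2 fold changes were 0.51, -0.34 and 0.37. *Slc6a3*, *Slc6a4* and *Fev*, markers of dopamine and serotonin neurons whose cell bodies lie in the brainstem, had too few reads to be tested, at 11 counts or fewer in every sample. *Slc18a2*, the vesicular monoamine transporter gene, was called UP, with 9.28 and 8.81 CPM in controls and 10.6 and 19.1 CPM in *Ash1L* shRNA samples 1 and 2. Of the monoamine oxidase genes, *Maoa* was called UP with a log2 fold change of 0.39 and *Maob* was called DOWN with one of -0.42. *Slc18a2* lost its call in the blocked fit and with the filter of 10 counts in every sample, and *Maob* lost its call with library-size scaling, DESeq2 and the likelihood ratio test.

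Markers of the labelled tissue and of neighbouring cells were read in the same samples. All 8 markers of cortical excitatory neurons were detected, at 2821 and 3301 CPM summed in control and 2592 and 2087 CPM in *Ash1L* shRNA samples 1 and 2. All 8 had negative fold changes, from -0.76 in *Tbr1* to -0.18 in *Emx1*. DOWN calls were made for 4 of them (50%), beside 8.28% of all genes tested. The median of the 8 log2 differences from the control mean was -0.20 for *Ash1L* shRNA sample 1 and -0.72 for sample 2. The sample with the highest *Drd2*, *Ppp1r1b*, *Adora2a* and *Rgs9* was thus the one with the lowest cortical excitatory markers, except for *Emx1*. *Emx1* had 5.88 and 8.41 CPM in control samples 1 and 2 and 6.13 and 6.61 CPM in *Ash1L* shRNA samples 1 and 2. Of 8 interneuron markers *Pvalb*, *Sst* and *Lhx6* (37.5%) were called DOWN, with fold changes from -0.90 in *Pvalb* to 0.28 in *Gad2*. *Gad1*, *Gad2* and *Slc32a1*, which striatal projection neurons also express, were among the 8. *Gad2* had 149, 125, 138 and 194 CPM in control samples 1 and 2 and *Ash1L* shRNA samples 1 and 2, and *Slc32a1* 32.7, 28.1, 28.2 and 37.1 CPM. Both were thus highest in *Ash1L* shRNA sample 2, where *Pvalb*, *Sst*, *Lhx6*, *Vip* and *Npy* were lowest. *Gad1* had 280, 277, 232 and 258 CPM in the same order. The summed interneuron level was 792, 710, 696 and 674 CPM in control samples 1 and 2 and *Ash1L* shRNA samples 1 and 2. The 3 cholinergic markers summed to between 2.59 and 2.69 CPM in controls and to 2.59 and 1.83 CPM in shRNA samples.

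Ependymal and choroid plexus cells line the ventricle that borders the striatum, and choroid plexus is known for abundant *Htr2c*. The 5 ependymal markers summed to 8.57 and 8.24 CPM in controls and to 8.51 and 18.8 CPM in *Ash1L* shRNA samples 1 and 2. Their log2 fold changes ran from 0.19 in *Foxj1* to 3.67 in *Tmem212*, with a median of 1.01. *Foxj1* overlapped between the groups, with 5.53 and 4.99 CPM in controls and 3.61 and 8.44 CPM in shRNA samples. *Tmem212*, with 1, 4, 15 and 45 counts, and *Ccdc153*, with 6, 7, 15 and 62 counts, were called UP. Both passed the filter on low counts through the shRNA samples, so their directions and calls are not read as a result. Neither was tested with at least 10 counts required in every sample. Under that filter the median log2 fold change of the ependymal markers still tested was 0.42, and 0 were called. The 10 choroid plexus markers summed to 9.78, 9.58, 5.91 and 16.9 CPM in the same order, with *Slc4a5* called UP at 1, 6, 21 and 11 counts, a call lost with DESeq2. *Slc4a5* likewise passed the filter on low counts through the shRNA samples. It was not tested with at least 10 counts required in every sample. *Ttr*, the defining transcript of choroid plexus, had the lowest fold change of that list at -0.68, with 0.425 and 1.37 CPM in controls and 0.146 and 1.11 CPM in shRNA samples. *Otx2* had 0 counts in the first 3 samples and 25 counts in *Ash1L* shRNA sample 2. The sums over 6 microglia markers were 539 and 568 CPM in controls and 666 and 281 CPM in *Ash1L* shRNA samples 1 and 2, and those over 6 astrocyte markers were 4419, 4714, 3634 and 2761 CPM, with *Gja1*, *Slc1a3*, *Aldh1l1* and *Slc1a2* called DOWN. These calls covered 66.7% of the astrocyte markers, beside 8.28% of all genes tested. *Slc1a2* made up most of the astrocyte sum, *S100b* overlapped between the groups, and *Aqp4*, with a log2 fold change of 0.11, had 254 CPM in *Ash1L* shRNA sample 2 against 231 and 199.6 CPM in controls. Sample 2 therefore stood apart in several cell type markers as well as in the striatal-type members, and the part of each in the values of the 9 genes was not tested.

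**Figure D4:**
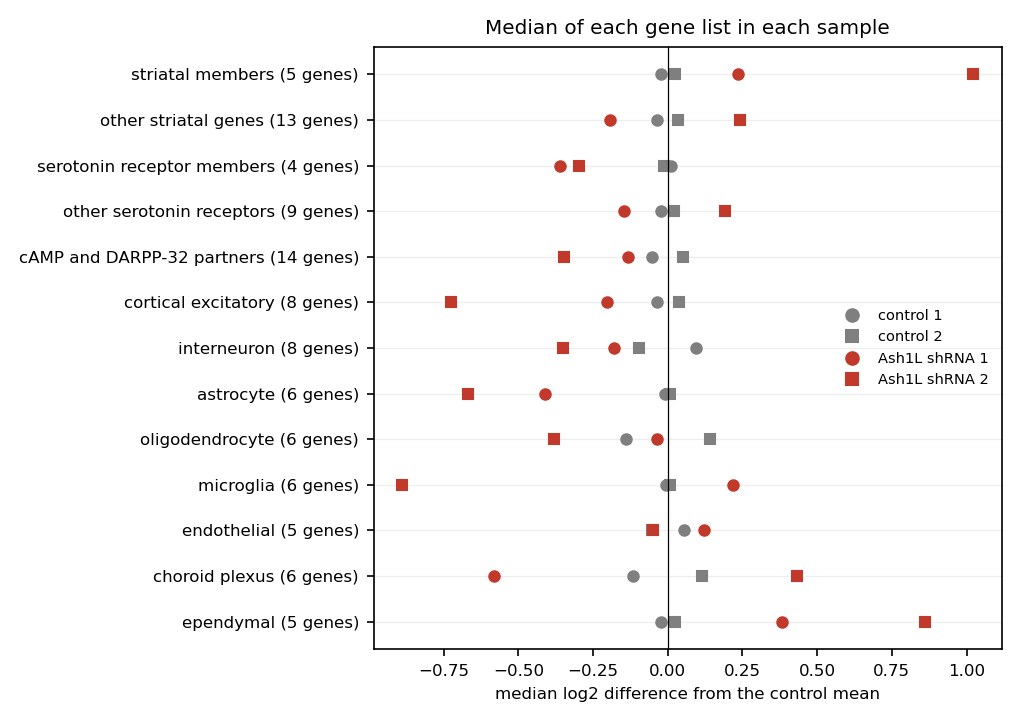
Median log2 difference from the control mean over the tested genes of each list, in each of the 4 samples, with 0.5 added to each CPM. *Ash1L* shRNA sample 2 (red squares) stands at 1.02 for the 5 striatal members, at 0.24 for 13 other striatal genes and at -0.72 for cortical excitatory markers, while the controls (grey) lie within 0.15 of 0 in each list.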

How the data were processed

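RNA-seq of PFC punches was analysed for 2 control and 2 *Ash1L* shRNA samples, grouped by their labels. The values the authors deposited are raw counts per gene symbol, from paired-end reads aligned to mm10 with RNA STAR and counted with featureCounts, whereas the labels' protocol names Cutadapt and TopHat2. Strand and multiple-mapping settings are not given in the sources used here. Genes were filtered with filterByExpr, normalized with TMM and tested with the robust quasi-likelihood F test in edgeR 4.0.16 (R 4.3.3), with Benjamini-Hochberg adjustment over 16232 genes. Standard errors were derived from each fold change and its F statistic. DESeq2 1.42.0, edgeR's likelihood ratio test, RLE scaling, scaling by library totals alone, a filter at 1 count, one at 10 counts in every sample, the replicate block and each sample left out were alternatives. Coordinates, exonic lengths and overlaps came from GENCODE vM21, and promoters from RefSeq (GRCm38.p6). The fit was tested on simulated data.

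The 9 members and the gene lists were chosen with earlier results of these data known. The named genes are the 9 members, *Ash1l*, and in each list the genes called (at most 4 a direction) and those at the ends of its range. A striatal gene listed at first is not reported here and was left out of its lists. *Drd1*, *Pdyn*, *Scn4b*, *Tacr1*, *Otx2* and other genes outside this rule were chosen after their values were seen. Replicates differed beyond sampling noise (chi-square over its degrees of freedom of 14.8 for controls and 42.3 for shRNA samples). Exact Poisson intervals cover counting error only.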

Additional observations from a re-analysis of the deposited data

How the results depend on the processing

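Over the 9 genes, the alternatives that kept all samples left every direction as it was. The median over the 9 genes, -0.09, was -0.039 with the replicate number as a block, and that of the serotonin receptor members, -0.32, was -0.28 with library-size scaling. The median of the other striatal genes, 0.07, was -0.21 with the filter of 10 counts in every sample, which tests fewer of them. With the replicate block, 0 of the 13 other striatal genes were called UP and 2 DOWN in place of 1 each, and no call of the 9 genes changed. Same-numbered samples are different pools, and their deviations from the group means correlated at -0.13 across genes. With the pairing crossed, chosen after seeing that value, 1 member and 2 other striatal genes were called UP.

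With each sample left out in turn, calls over all genes ran from 306 to 2718 DOWN and from 423 to 2368 UP, against 1344 and 1397. Between 0 and 2 members were called DOWN and between 0 and 4 UP, and both counts were 0 without either control, a fit that assumes the lone control varies like the shRNA samples. The medians ran from -0.031 to 0.33 for the 9 genes, from 0.23 to 1.03 for the striatal members, from -0.41 to -0.33 for the serotonin receptor members and from -0.19 to 0.25 for the other striatal genes, of which 0 to 2 were called DOWN and 0 to 2 UP. The log2 fold change of *Htr2a* ran from -0.39 to 0.33, turning positive without control sample 2, that of *Htr2c* from -0.43 to 0.14, turning positive without *Ash1L* shRNA sample 1, and that of *Tac1* from -0.49 to 0.23, turning positive without *Ash1L* shRNA sample 2. Genes with an adjusted p under 0.05 numbered 1 in edgeR's quasi-likelihood test, 421 with DESeq2, 479 with the likelihood ratio test, 34 with the filter at 1 count and 0 with the block, with 0 members among them in each. Without *Ash1L* shRNA sample 1 they numbered 2502, 4 of them members, and without sample 2 they numbered 36. The cause was not tested. *Drd2*, *Adora2a* and *Htr1b* had between 13 and 113 counts in a sample, and depth limits their values most.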
